A study of Homo sapiens with 12 samples.

Results

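The transcripts of 10 autophagy genes that act before the autophagosome closes were followed in L428 cells under the proteasome inhibitor ixazomib: ULK1, ULK2, BECN1, PIK3C3, WIPI1, ATG9A, ATG5, ATG7, ATG12 and ATG16L1. They were chosen by name, as every row of the deposited signal table that carries one of these symbols. The table held 17 such probes among 47227, and the 10 genes were among 31303 symbols. A probe was kept where it was detected on at least 3 of 12 arrays, which left 14 of the 17 probes and at least 1 probe for each of the 10 genes.

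RNA came from 12 samples of L428, a long-established Hodgkin lymphoma cell line, and was hybridised to Illumina HT-12 arrays. There were 3 samples each of L428 cells resistant to ixazomib, of untreated control cells, of cells given 25 nM ixazomib for 24 h, and of cells given 71.25 nM for 24 h. By its title the study concerns MYC- and CHK1-dependent death of lymphoma cells under proteasome inhibition. Resistant cells have no dose in the labels, which leave unstated whether they grew in drug up to harvest and whether they are a clone. The description of 1 sample titled 71.25 nM gives 25 nM, and the sample was kept by its title. The design text names biological triplicates after the 25 nM treatment alone, so the spread that the p-values measure may be technical.

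Macroautophagy wraps cytoplasm in a double membrane and delivers it to the lysosome, and in cells with a blocked proteasome it is another route by which ubiquitinated protein is degraded. ULK1 and its relative ULK2 are the kinases that start the process. They activate a lipid kinase complex of PIK3C3 (VPS34) and BECN1, whose product PI3P recruits WIPI proteins to the growing membrane, while ATG9A carries membrane to it. ATG7 then activates the ubiquitin-like ATG12, which becomes attached to ATG5, and this conjugate with ATG16L1 directs the attachment of ATG8 proteins such as LC3 to lipid.

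The mean signal of an array was 293.2 to 326.7 in resistant cells, 343.5 to 400.5 in control, 316.4 to 384 at 25 nM and 342.3 to 353.8 at 71.25 nM. Between 17100 and 18785 probes were detected per array. All 7 markers of Hodgkin lymphoma lines, among them TNFRSF8 (CD30), had a kept probe, and their summed signal was 24800 to 25770 in resistant cells, 34750 to 43730 in control, 31340 to 36490 at 25 nM and 19850 to 23400 at 71.25 nM. The sum does not describe each marker. Mean levels in resistant cells and control were 9.93 and 9.73 for TNFRSF8 and 10.3 and 9.39 for TRAF1. The other markers were lower in resistant cells, with 13.3 and 13.9 for CCL17, 13.9 and 14.2 for FSCN1, and 8.74 and 9.35 for IRF4. FUT4 had 6.51 and 7.82, and CCL22 had 4.43 and 6.95. Markers of T cells had a kept probe for 1 of 5 genes, of myeloid cells for 3 of 5 and of stroma and epithelium for 1 of 5. CD3D, CD3E, CD3G, ITGAM, COL1A1 and CDH1 were among those not kept. The summed signals of these 3 lists lay between 476.2 and 624.5 on all arrays, and the part of the Hodgkin marker change in the results was not tested.

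Levels are given as log2 of the background-corrected, quantile-normalized signal of a gene's brightest kept probe. Differences are log2 values with the standard error of limma's model over all 12 samples, and a gene is said to have risen or fallen where its adjusted p was under 0.05. The 3 comparisons with control use the same control arrays. RNA was measured in bulk, so a changed share of cells and a changed amount of RNA per cell cannot be told apart.

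ULK1 and WIPI1 rose most among the 10 genes in every comparison with control. At 25 nM 4 of the 10 rose (ULK1, WIPI1, ATG12 and ATG9A), against 13.3% of the 14953 genes tested, and 0 fell, against 13.7%. At 71.25 nM 5 rose (ULK1, WIPI1, ATG12, BECN1 and ATG16L1), against 19.4% of all genes, and 0 fell, against 19.6%. In resistant cells 6 rose, these 5 and ATG9A, against 23% of all genes, and 0 fell, against 24.1%. At an unadjusted p under 0.05 in limma's test, 1 of the 10 was lower at 25 nM (ATG5), 0 at 71.25 nM and 0 in resistant cells.

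The 10 genes had median log2 differences from control of 0.23 with 25 nM, 0.42 with 71.25 nM and 0.52 in resistant cells, where the medians over all genes were -0.0018, -0.0057 and -0.02. The difference was positive for 8 of the 10 in each of these comparisons. Across the 4 groups the F test called 6 of the 10, against 52.7% of all genes. ULK1 had the lowest adjusted p of that test (2.07e-08), then WIPI1 (7.6e-08), ATG12 (0.00015), BECN1 (0.00298), ATG16L1 (0.00929) and ATG9A (0.023). The other 4 genes had adjusted p-values between 0.0991 and 0.804.

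**Figure D1:**
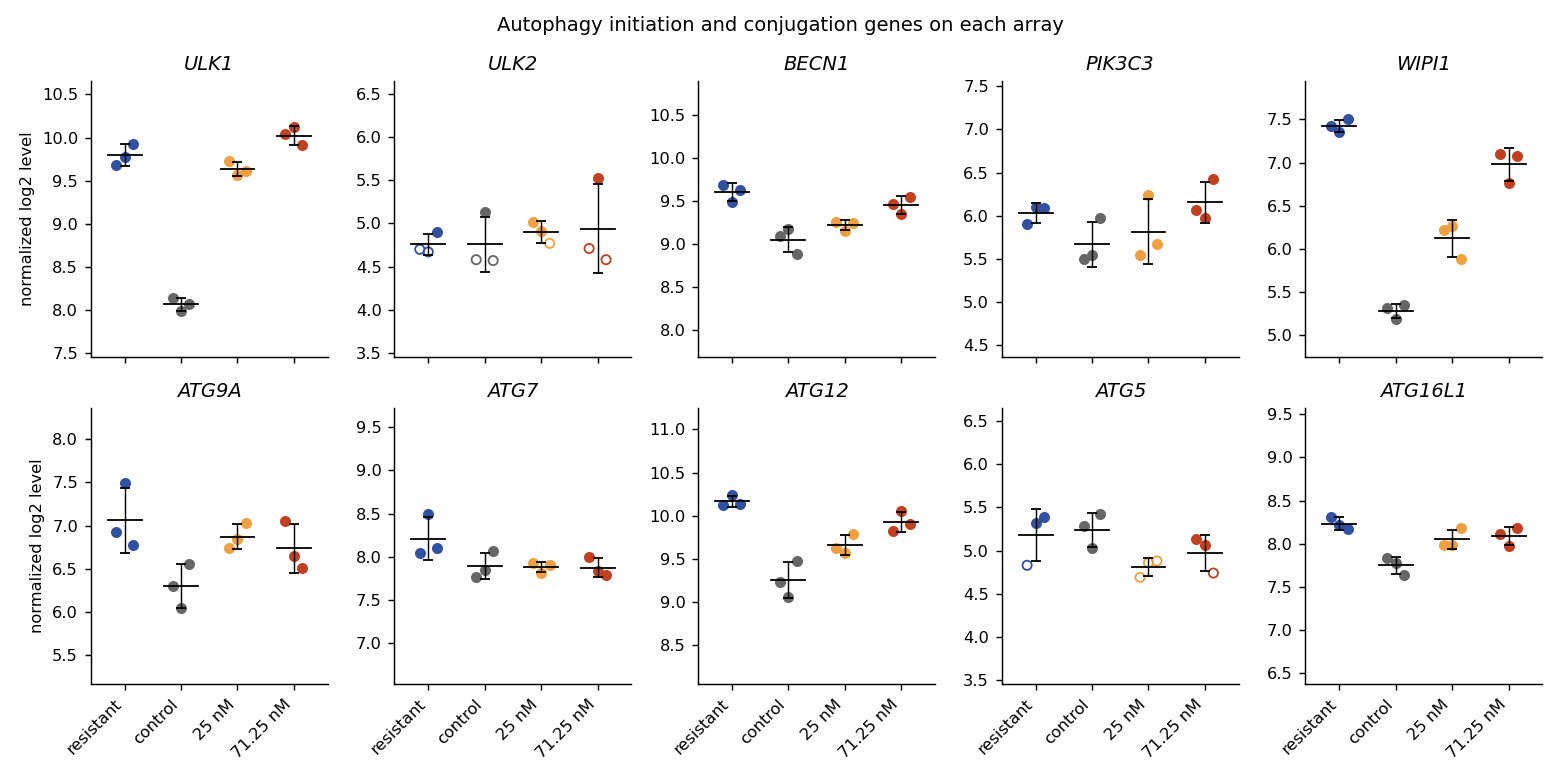
Log2 level of each of the 10 genes on each array (vertical axis, brightest kept probe) by group (horizontal axis, resistant, control, 25 nM and 71.25 nM, 3 arrays each). Filled points are arrays where the probe was detected, open points arrays where it was not, and the line and bars are the mean and SD of a group. Each panel spans the same range. ULK1 lies near 8 on the control arrays and between 9.57 and 10.12 on the other 9, WIPI1 forms 4 separate levels, and the points of ULK2 overlap between all groups.

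ULK1 is the initiating kinase, and its level was higher on each of the 9 arrays of drug-treated or resistant cells than on any control array. It read 9.68, 9.77 and 9.93 in resistant cells. Along the doses it read 8.14, 7.99 and 8.07 in control, 9.73, 9.57 and 9.61 at 25 nM, and 10.04, 10.12 and 9.91 at 71.25 nM. The resistant level lay between those of the doses and overlapped both.

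Against control ULK1 rose by 1.57 ± 0.10 at 25 nM (2.98-fold, adjusted p = 3.23e-07). At 71.25 nM it rose by 1.96 ± 0.10 (3.89-fold, adjusted p = 1.37e-08), and in resistant cells by 1.73 ± 0.10 (3.32-fold, adjusted p = 1.84e-08). These rises ranked 44, 61 and 245 by size among the genes that rose in each comparison, in which 244, 488 and 843 genes rose at least 2-fold. Another ULK1 probe gave 1.60, 1.93 and 1.80, all called, and the 2 remaining ULK1 probes were detected on 0 arrays. In the deposited signals before any correction, ULK1 averaged 811 in resistant cells, 938 with 25 nM and 1125 with 71.25 nM, against 372 in control. All 24 other settings of the processing kept these 3 calls, with differences of 1.33 to 1.61, 1.68 to 2.02 and 1.41 to 1.79.

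ULK2, its relative, had a probe near background that was detected on 5 of 12 arrays. Its level was 4.67 to 4.90 in resistant cells, 4.57 to 5.13 in control, 4.77 to 5.02 at 25 nM and 4.58 to 5.53 at 71.25 nM. The groups overlapped, and its differences from control were 0.14 ± 0.22 at the lower dose, 0.18 ± 0.22 at the higher dose and 0.00 ± 0.22 in resistant cells. The probe was detected on 1 of 3 resistant, 1 of 3 control, 2 of 3 25 nM and 1 of 3 71.25 nM arrays, so these values bound no change of the transcript.

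The lipid kinase pair moved less. BECN1, the regulatory subunit, read 9.69, 9.49 and 9.63 in resistant cells, and 9.09, 9.18 and 8.89 in control, 9.26, 9.15 and 9.25 at 25 nM, and 9.46, 9.35 and 9.55 at 71.25 nM. The resistant and 71.25 nM arrays all stood above control, while the 25 nM arrays overlapped with it. BECN1 rose by 0.40 ± 0.11 at 71.25 nM (adjusted p = 0.00992) and by 0.55 ± 0.11 in resistant cells (adjusted p = 0.00079), and differed by 0.17 ± 0.11 at 25 nM (adjusted p = 0.293).

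With median scaling of the arrays in place of quantile normalization, the BECN1 differences were 0.30 at 71.25 nM (adjusted p = 0.169) and 0.21 in resistant cells (adjusted p = 0.322), and neither was called. That scaling also moved the median of all genes to -0.14 in resistant cells against control. The mean deposited signal of BECN1 was 785 at 71.25 nM and 719 in resistant cells, against 669 in control.

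PIK3C3, the catalytic subunit, did not pass in any comparison. It read 5.90, 6.10 and 6.09 in resistant cells, and 5.50, 5.54 and 5.97 in control, 5.54, 6.24 and 5.67 at 25 nM, and 6.07, 5.97 and 6.42 at 71.25 nM. Its difference was largest at 71.25 nM, 0.48 ± 0.18 with an adjusted p of 0.0548, and was called in 14 of 24 other settings. Control array 3 was the highest of its group, and without it that difference was 0.63 (adjusted p = 0.0231) and the one in resistant cells 0.51 (adjusted p = 0.0493, against 0.36 and 0.134 with it). The 71.25 nM difference was also called without 25 nM array 4 (0.48, adjusted p = 0.047), 25 nM array 5 (0.48, 0.0232) or 71.25 nM array 8 (0.57, 0.048).

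WIPI1 binds the PI3P that the PIK3C3 complex makes, and its 4 groups did not overlap. It read 7.42, 7.36 and 7.50 in resistant cells. Along the doses it read 5.31, 5.19 and 5.35 in control, 6.22, 6.27 and 5.88 at 25 nM, and 7.10, 6.76 and 7.08 at 71.25 nM. The order was control, 25 nM, 71.25 nM and resistant, with the highest array of each group below the lowest array of the next.

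WIPI1 rose by 0.84 ± 0.13 at 25 nM (1.79-fold, adjusted p = 0.000314) and by 1.69 ± 0.13 at 71.25 nM (3.24-fold, adjusted p = 3.33e-07), against control. In resistant cells it rose by 2.14 ± 0.13 (4.41-fold, adjusted p = 1.65e-08). With this processing that was the largest difference of the 10 genes in any comparison. It ranked 391, 103 and 121 by size among the genes that rose in these comparisons. All 24 other settings kept the 3 calls, but the size depended on the background correction. The mean deposited signals were low: 228 in resistant cells, 159 with 25 nM and 211 with 71.25 nM, against 123 in control. With no background correction the differences were 0.33, 0.78 and 1.07, and in the authors' deposited values 0.33, 0.78 and 1.06. In both of these ULK1 had the larger difference in resistant cells, as it was at 1.41 or above there in all 24 other settings.

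The reference sequence before both genes is shown because ULK1 and WIPI1 were the members with the largest rises. Each is given 5′ to 3′ from RefSeq (GRCh38.p14), from 250 bases before to 50 bases after the annotated start, as chr12:131894372-131894671 on the plus strand for ULK1 and chr17:68457447-68457746 on the minus strand for WIPI1. Capitals mark matches to the GC box, GGGCGG, or its reverse complement, CCGCCC, a motif added after the promoters had been seen.
ULK1: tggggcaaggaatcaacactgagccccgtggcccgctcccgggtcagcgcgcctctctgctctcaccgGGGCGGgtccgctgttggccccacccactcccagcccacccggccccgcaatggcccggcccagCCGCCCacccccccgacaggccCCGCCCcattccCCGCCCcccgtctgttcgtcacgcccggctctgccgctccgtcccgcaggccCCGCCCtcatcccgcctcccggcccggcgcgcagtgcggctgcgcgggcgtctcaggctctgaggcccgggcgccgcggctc
WIPI1: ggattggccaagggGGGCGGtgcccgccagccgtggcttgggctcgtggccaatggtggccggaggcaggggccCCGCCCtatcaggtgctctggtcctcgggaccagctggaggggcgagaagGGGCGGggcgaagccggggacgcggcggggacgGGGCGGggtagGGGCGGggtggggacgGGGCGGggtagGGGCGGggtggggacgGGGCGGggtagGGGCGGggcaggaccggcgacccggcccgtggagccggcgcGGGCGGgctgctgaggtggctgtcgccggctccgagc
The ULK1 stretch held 5 GC boxes and was 78.3% G and C, and at least 5 occurred in 5.14% of 35116 RefSeq promoters of the same length. The WIPI1 stretch held 10 and was 79.7% G and C, and at least 10 occurred in 0.214% of promoters. Of the WIPI1 matches, those from -93 to -23 relative to the start lie in a short repeat.

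All 10 genes matched a promoter in that table, and 7 of the 10 held at least 1 GC box, as did 45% of all promoters. ATG12 and BECN1, which rose, held 0, as did ULK2. PIK3C3 held 1, and ATG9A, ATG16L1, ATG5 and ATG7 held 2 each, of which ATG5 and ATG7 did not rise. A relation between GC boxes and the rises was not tested. Letters of 4 stress and lysosomal motifs were searched on both strands with no overlap between them considered. They were CACGTG, the E-box core of the lysosomal CLEAR element (in 7.26% of promoters), TGATGNAA, the core of the C/EBP-ATF element (3.62%), GAANNTTC, a pair of heat shock units (6.77%), and TGACNNNGC, the antioxidant response core (13.3%). None of the 4 occurred in these windows of the 10 genes, which says only that the letters are absent there.

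ATG9A, a membrane protein that moves lipid between the leaflets of the growing membrane, rose at 25 nM and in resistant cells. Its brightest probe read 6.92, 7.49 and 6.78 in resistant cells, and 6.30, 6.04 and 6.55 in control, 6.74, 6.85 and 7.03 at 25 nM, and 7.05, 6.65 and 6.51 at 71.25 nM. The resistant and 25 nM arrays lay above control, and the lowest 71.25 nM array lay within it. The differences were 0.57 ± 0.19 at 25 nM (adjusted p = 0.0439), 0.44 ± 0.19 at 71.25 nM (adjusted p = 0.0922) and 0.76 ± 0.19 in resistant cells (adjusted p = 0.00502).

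Another ATG9A probe, with lower signal but less spread, was called in all 3 comparisons, at 0.78 (adjusted p = 0.000527), 0.70 (0.000645) and 0.93 (3.98e-05), and the remaining ATG9A probe was detected on 0 arrays. On the brightest probe the call at 25 nM was lost without control array 1 (0.57, adjusted p = 0.0904), control array 2 (0.44, 0.154), array 4, 5 or 6 of the 25 nM group (0.63, 0.58 and 0.49, with 0.059, 0.085 and 0.138) or 71.25 nM array 8 (0.57, 0.0531). The call at 71.25 nM was gained without resistant array 11 (0.44, adjusted p = 0.0471).

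**Figure D2:**
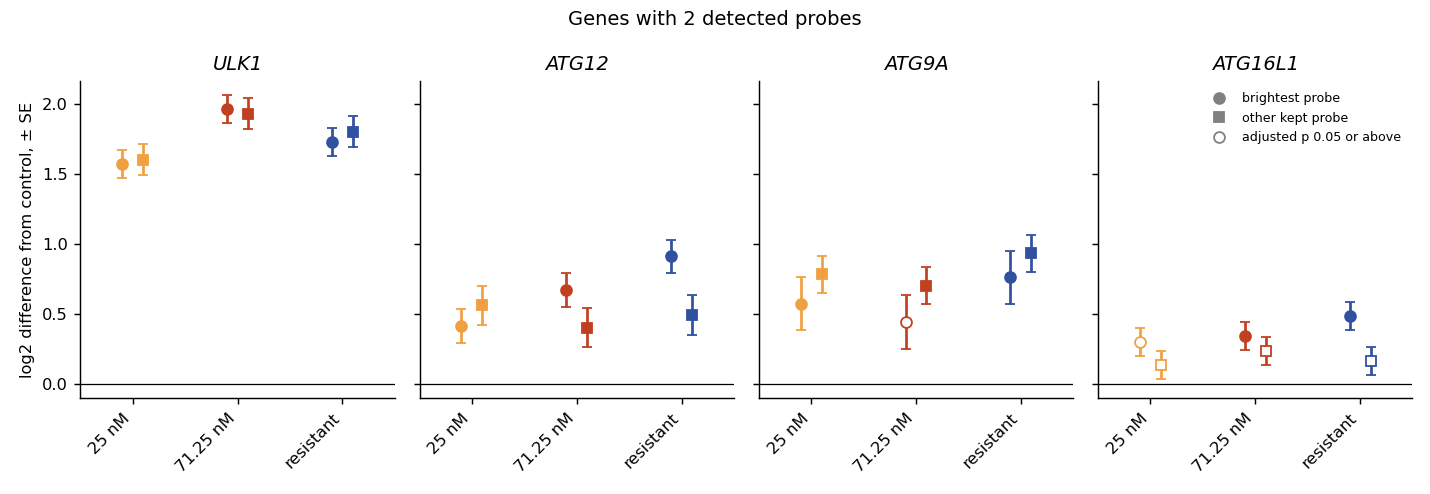
Log2 difference from control (vertical axis, ± SE) for the brightest (circles) and the other kept probe (squares) of ULK1, ATG12, ATG9A and ATG16L1, in cells at each dose and in resistant cells (horizontal axis); filled symbols were called. The paired ULK1 probes lie within 0.1 of each other, while the other ATG16L1 probe lies at 0.13 to 0.23, below the brightest at 0.30 to 0.48.

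The conjugation genes divided into ATG12 and ATG16L1, which rose, and ATG5 and ATG7, which did not pass. ATG12 is the ubiquitin-like protein of the system. It read 10.12, 10.24 and 10.14 in resistant cells, and 9.23, 9.06 and 9.48 in control, 9.63, 9.57 and 9.79 at 25 nM, and 9.82, 10.05 and 9.90 at 71.25 nM. As for WIPI1, the 4 groups did not overlap and stood in the order control, 25 nM, 71.25 nM and resistant, but neither the difference between the doses (0.26, adjusted p = 0.23) nor that between resistant cells and 71.25 nM (0.25, adjusted p = 0.173) passed.

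ATG12 rose by 0.41 ± 0.12 at 25 nM (adjusted p = 0.0232), by 0.67 ± 0.12 at 71.25 nM (adjusted p = 0.000607) and by 0.91 ± 0.12 in resistant cells (1.88-fold, adjusted p = 2.74e-05). A dimmer ATG12 probe was also called in all 3 comparisons, at 0.56, 0.40 and 0.49, and did not keep the order of the groups. The call at 25 nM was lost without control array 1 (0.39, adjusted p = 0.065), control array 2 (0.31, 0.0944) or 25 nM array 6 (0.34, 0.0911), under median scaling (0.37, 0.101) or housekeeping scaling (0.32, 0.0924), and with only those groups fitted (0.41, 0.0558).

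ATG16L1, which brings the conjugate to the membrane, read 8.31, 8.22 and 8.17 in resistant cells, and 7.83, 7.78 and 7.64 in control, 7.98, 7.99 and 8.18 at 25 nM, and 8.11, 7.97 and 8.18 at 71.25 nM. Control stood below the other 3 groups, which overlapped each other. It rose by 0.34 ± 0.10 at 71.25 nM (adjusted p = 0.0204) and by 0.48 ± 0.10 in resistant cells (adjusted p = 0.00174), with 0.30 ± 0.10 at 25 nM (adjusted p = 0.0509, called in 8 of 24 other settings). The other ATG16L1 probe gave differences of 0.13, 0.23 and 0.16 in the same order of groups (25 nM, 71.25 nM, resistant), none of them called. Under median scaling the brightest probe gave 0.28 (adjusted p = 0.188) and 0.20 (adjusted p = 0.33), and the 71.25 nM call was also lost without control array 3 (0.28, 0.0716) or 71.25 nM array 7 or 9 (0.33 and 0.29, with 0.0573 and 0.0702).

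ATG7, the E1-like enzyme that activates ATG12 and the ATG8 proteins, averaged 8.21 ± 0.24 in resistant cells, and 7.89 ± 0.15 in control, 7.88 ± 0.06 at 25 nM and 7.88 ± 0.11 at 71.25 nM (SD, n = 3 each). Its differences were -0.01 ± 0.13 at 25 nM (95% interval -0.29 to 0.26), -0.02 ± 0.13 at 71.25 nM (-0.30 to 0.26) and 0.32 ± 0.13 in resistant cells (adjusted p = 0.0619). Resistant array 11, at 8.49, was the highest, and the lowest resistant array, at 8.04, lay within the control arrays. The resistant difference was called in 8 of 24 other settings, among them without control array 3 (0.40, adjusted p = 0.034) or resistant array 10 (0.40, adjusted p = 0.0361).

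ATG5, the acceptor of ATG12, lay near background. It was detected on 2 of 3 resistant arrays, 3 of 3 control arrays, 0 of 3 arrays at 25 nM and 2 of 3 at 71.25 nM. Its level was 4.83, 5.32 and 5.39 in resistant cells, and 5.28, 5.03 and 5.42 in control, 4.69, 4.86 and 4.88 at 25 nM, and 5.13, 5.06 and 4.74 at 71.25 nM. The 25 nM arrays lay below all control arrays, with a difference of -0.43 ± 0.16 (adjusted p = 0.0627). Taken on group means against the lowest detected signal, the bound came to 1.28-fold lower than control. It leaves out the error of the means, and the difference was not called, so a smaller change is possible. The mean deposited signals of ATG5 were 112 at 25 nM and 122 in control. Without control array 2 ATG5 was called lower at 25 nM (-0.54, adjusted p = 0.0395), and likewise without resistant array 10 (-0.44, adjusted p = 0.03). At 71.25 nM and in resistant cells the differences were -0.27 and -0.06, with adjusted p-values of 0.217 and 0.786.

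**Figure D3:**
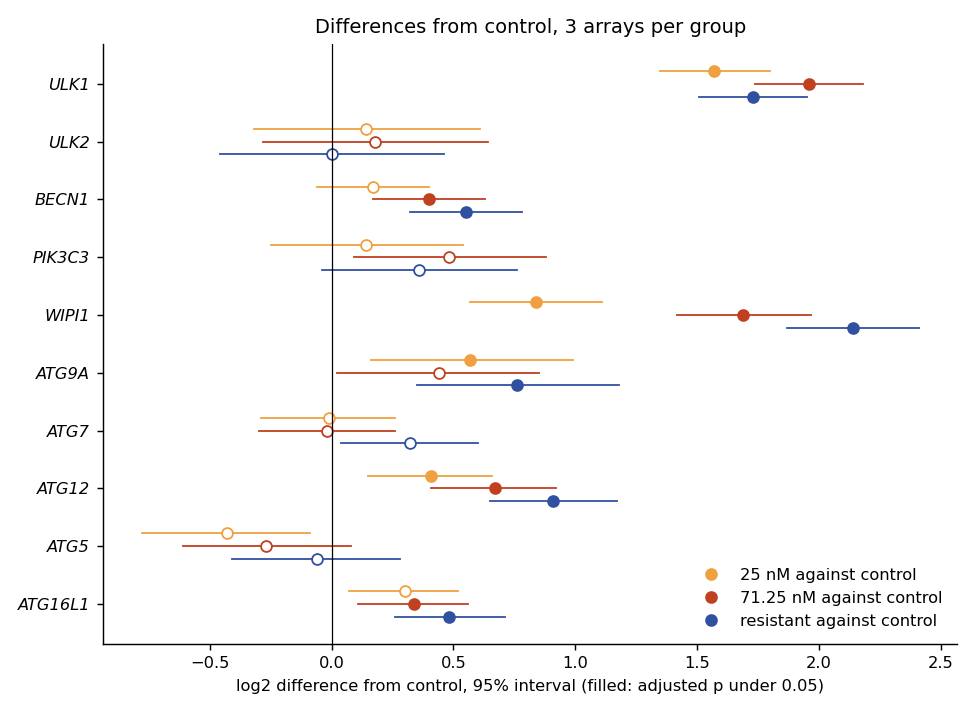
Log2 difference from control of the 10 genes (horizontal axis) with 95% intervals, in cells at each dose and in resistant cells. Filled points were called at an adjusted p under 0.05 and open points were not. ULK1 and WIPI1 stand apart, ATG12, ATG9A, BECN1 and ATG16L1 lie between 0.17 and 0.91, and the intervals of ULK2 include 0 in all 3 comparisons.

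Between the doses 2 of the 10 genes rose at 71.25 nM relative to 25 nM, ULK1 and WIPI1, against 2.98% of all genes, and 0 fell, against 2.88%. WIPI1 rose by 0.85 ± 0.13 (adjusted p = 0.00203), and this call was kept in all 24 other settings. ULK1 rose by 0.39 ± 0.10 (adjusted p = 0.0472), a call kept in 10 of the 24, while its other probe gave 0.33 (adjusted p = 0.0845). The ULK1 call was lost when any array but resistant array 12 was left out (0.34 to 0.44, adjusted p = 0.0507 to 0.138), and under median scaling (0.32, adjusted p = 0.366). The median of the 10 genes was 0.20, against -0.0013 over all genes, and 8 of the 10 differences were positive.

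Resistant cells differed from cells at 71.25 nM in 1 of the 10 genes. WIPI1 rose by 0.45 ± 0.13 (adjusted p = 0.0233), against 11.3% of all genes that rose, and 0 of the 10 fell, against 10.3%. This call was lost without 71.25 nM array 8 (0.34, adjusted p = 0.0961), resistant array 10 (0.45, 0.0557) or resistant array 12 (0.41, 0.0772), and under median scaling (0.26, 0.325). ULK1 was at -0.23 ± 0.10 (adjusted p = 0.142), the member with an unadjusted p under 0.05 and a lower level in resistant cells. In the authors' deposited values, tested in the same model, ULK1 was called lower (-0.21, adjusted p = 0.0344) and ATG7 higher (0.26, adjusted p = 0.0295), and under median scaling ULK1 was at -0.47 (adjusted p = 0.0468). The labelled dose of 71.25 nM has no counterpart in the labels of the resistant cells, so these groups may differ in drug exposure as well.

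The partners of these genes in initiation, nucleation and lipid transfer were read from a list of 16, of which 13 were tested. At 25 nM 3 of the 13 rose and 1 fell, at 71.25 nM 6 rose and 1 fell, and in resistant cells 6 rose and 1 fell, with medians of 0.08, 0.37 and 0.38. Over all genes 13.3%, 19.4% and 23% rose and 13.7%, 19.6% and 24.1% fell in these comparisons. RB1CC1 (FIP200), the scaffold of the ULK1 complex, rose by 0.82, 1.39 and 1.44. ATG101, deposited as C12orf44 and also a subunit of that complex, rose by 0.46, 0.66 and 0.94. WDR45, a WIPI family protein, rose by 0.57, 1.20 and 0.97. TMEM41B, a lipid scramblase of the endoplasmic reticulum, rose by 0.48 at 71.25 nM and by 1.24 in resistant cells, and ATG2A, which transfers lipid, by 0.80 and 0.86. UVRAG, the BECN1 partner of the endosomal PIK3C3 complex, fell by 0.40, 0.58 and 0.74. ATG13, another subunit of the ULK1 complex, and RUBCN had no kept probe.

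Of the 8 other conjugation genes 3 rose at each dose and in resistant cells, and 1 fell at 71.25 nM and in resistant cells but 0 at 25 nM, with medians of 0.15, 0.18 and 0.21. Over all genes 13.3%, 19.4% and 23% rose and 13.7%, 19.6% and 24.1% fell in these comparisons. Whether these 8 genes differ from those shares was not tested. The genes that rose were proteases of the ATG4 family, which process ATG8 proteins before lipidation and release them after it. ATG4A rose by 1.01, 1.36 and 1.57, ATG4D by 0.75, 0.54 and 0.70, and ATG4B by 0.48, 0.59 and 0.29. ATG4C fell by 0.41 at 71.25 nM and by 0.38 in resistant cells.

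The ATG8 proteins and the receptors that bind them, the substrates and cargo adaptors of the conjugation system, had the largest differences of the lists described here. Of 12 tested genes of a list of 14, 7 rose at 25 nM and 9 rose at 71.25 nM and in resistant cells, 0 fell, and the medians were 0.55, 0.67 and 0.94, beside the same shares over all genes (13.3%, 19.4% and 23% that rose). GABARAPL1, an ATG8 protein, rose by 3.04, 3.69 and 3.68. MAP1LC3B (LC3B) rose by 1.67, 2.31 and 2.59. SQSTM1 (p62), which ties ubiquitinated cargo to ATG8 proteins, rose by 1.65, 1.69 and 1.83. The receptor TAX1BP1 rose by 0.82, 1.07 and 1.00, and CALCOCO2 (NDP52), a receptor as well, by 0.67, 1.00 and 1.62. GABARAPL1 and MAP1LC3B have near-identical copies in the genome, and cross-hybridization was not tested.

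**Figure D4:**
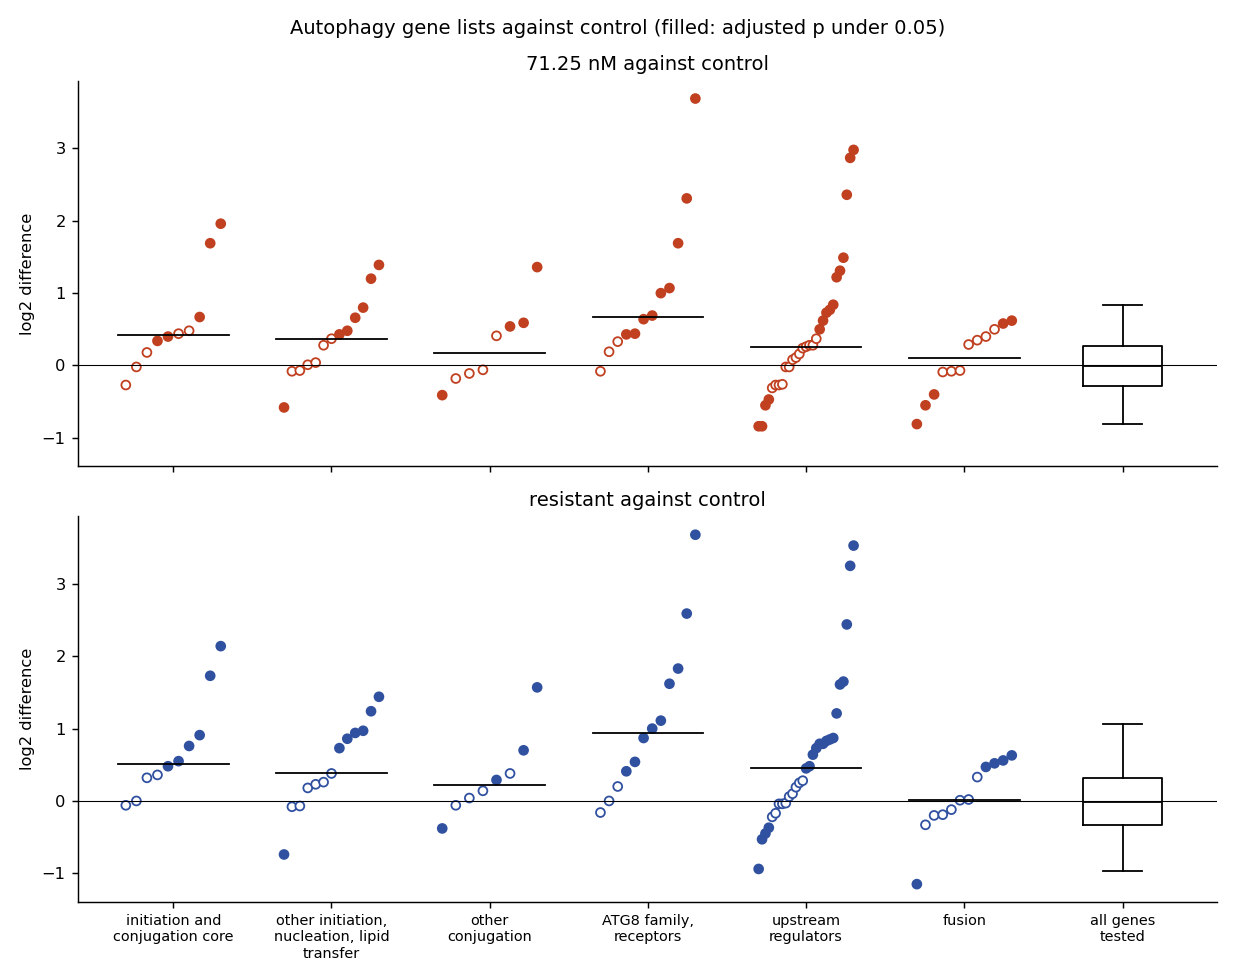
Log2 difference from control (vertical axis) of the 10 genes and of the tested genes in each other list (1 point a gene, filled where called, the median as a line), at 71.25 nM (top) and in resistant cells (bottom). The box at the right holds all 14953 genes, with whiskers at their 5th and 95th percentiles. GABARAPL1 is the highest point of the ATG8 and receptor list, at 3.69 and 3.68.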

How the data were processed

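RNA of 12 L428 samples was measured on Illumina HT-12 arrays, and groups were taken from sample titles. The deposited table holds a mean bead intensity and a detection p-value per probe, on a linear scale without background subtraction or scaling between arrays, as the deposited values show. Its columns carry a group and an array number, not a replicate number. The authors' processed values are linear intensity values, corrected through housekeeping genes and quantile normalized per the series' design text. Their column medians ran from 103.9 to 104.8, no centring was seen, and which housekeeping genes were used is unknown. No source used here names the scanner software.

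Signals were corrected with limma's normexp model from the detection p-values (offset 16), then quantile normalized, and log2 was taken (limma 3.58.1, R 4.3.3; figures with matplotlib 3.10.9, numpy 2.4.6 and pandas 2.3.3). Probes detected (p under 0.05) on at least 3 of 12 arrays were kept, 20414 in all, and each of 14953 genes took its brightest. Limma's moderated two-sided tests came from a linear model of the 4 group means over all 12 samples. Each adjusted p is from that model, by Benjamini-Hochberg over the kept probes, unless another setting is named. With 3 samples a group the arrays limit precision, and the median standard error was 0.14. An exact permutation test of 3 against 3 samples cannot go below 0.1, so none was used. A gene undetected in a group was given as a bound against the lowest detected signal.

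The members and lists were chosen with earlier results of these data known. All 10 members are described in every comparison. Of each list up to 4 rises and 4 falls of largest size are named per comparison, some with their values in the other comparisons. PRKAB1, ATF4, MCL1, RHEB, MTOR, RPTOR, TFE3, TOLLIP and NBR1 are named beside these. The 5 genes most like the member with the largest rise are named as well. Alternatives changed scaling, background correction, filter, probe choice, samples fitted and prior, used the authors' values, and left out each array. The fit was tested on simulated data. A further marker list is not reported here.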

Additional observations from a re-analysis of the deposited data

How the results depend on the processing

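With 3 arrays a group, signal over background limited the values of ULK2 and ATG5, which were not detected on every array. Of the member values, 530 under other settings and 543 with an array left out kept direction and call, 14 and 26 lost a call, 36 and 10 gained one, and 10 and 21 changed sign; the causes were not tested. None of the sign changes was a call.

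Genes called at 71.25 nM against 25 nM numbered 876, but 1775 in the authors' values, 1623 with the replicate block, 1323 with detection on all 12 arrays, 400 under median scaling, 1772 without background correction, 1582 with an offset of 50, 1527 with a trended robust prior, and 376 to 956 with an array left out. Members called at 25 nM against control numbered 2 under housekeeping scaling and 2 to 5 with an array left out. Between doses they were 1 under housekeeping scaling, median scaling or a fit of only those groups, and 1 to 2 with an array left out. In resistant cells against 71.25 nM they were 3 in the authors' values, 3 with the replicate block, 3 without background correction, 2 with an offset of 50, 2 with a trended robust prior, and 0 to 1 with an array left out. The methods' one-way test on the authors' values, added after the data were seen, called 5 of 10 members after Benjamini-Hochberg adjustment. Unlike the F test, it used linear values and was adjusted over all probes, not only those kept.

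Sign changes under median scaling were ATG16L1 at 71.25 nM against 25 nM (-0.01) and, in resistant cells against 71.25 nM, ATG16L1 (-0.08) and BECN1 (-0.09). Under housekeeping scaling they were ATG5 (0.11) and ULK2 (0.17) in resistant cells against control and ATG7 between doses (0.02). ULK2 in resistant cells against control was 0.01 in the authors' values, with the replicate block and without background correction, and 0.0044 under cyclic loess. With an array left out, ranges that crossed 0 were -0.01 to 0.10 for ATG16L1 between doses, -0.17 to 0.11 for ATG5 in resistant cells against control, and for ATG7 -0.08 to 0.07 at 25 nM and at 71.25 nM against control and -0.07 to 0.04 between doses. For PIK3C3 they were -0.07 to 0.29 at 25 nM against control and -0.21 to 0.01 in resistant cells against 71.25 nM. For ULK2 they were -0.26 to 0.21 between doses, -0.11 to 0.36 at 71.25 nM against control, -0.36 to 0.11 in resistant cells against 71.25 nM and -0.10 to 0.18 in resistant cells against control.

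Of the genes called, 30.5% were higher in resistant cells against control under median scaling, in place of 48.8%, and 27% against 71.25 nM, in place of 52.4%, with the median of all genes moved to -0.14 and -0.13. Housekeeping scaling gave 39% higher at 25 nM against control, in place of 49.4%, and 64.9% between doses, in place of 50.8%. Samples with the same replicate number did not deviate together (correlations of -0.286 to 0.161, 3 of 12 closest to their own number), so the numbers were taken only as names.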

Other observations

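Genes listed as upstream regulators of autophagy, among them BCL2 family genes and transcription factors, included rises and falls. Of 29 tested regulators from a list of 32, 10 rose and 3 fell at 25 nM, 11 rose and 4 fell at 71.25 nM, and 15 rose and 4 fell in resistant cells, all against control, with medians of 0.21, 0.26 and 0.45. Over all genes 13.3%, 19.4% and 23% rose and 13.7%, 19.6% and 24.1% fell, and whether this list differs from these shares was not tested. DDIT3 (CHOP), a stress-induced transcription factor, rose by 1.75, 2.98 and 3.53. DDIT4 (REDD1), an inhibitor of mTORC1 signalling, rose by 0.91, 2.36 and 3.25, and SESN2, another, by 1.16, 2.87 and 2.44, from a probe detected on 1 of 3 control arrays. SESN3, of the same family, rose by 0.82, 1.31 and 1.61, from a probe detected on 2 of 3 control arrays. TRIB3, a pseudokinase induced by ATF4 and DDIT3, rose by 0.66, 1.49 and 1.65. MLST8, a subunit of mTORC1, fell by 0.68, 0.84 and 0.94, while RHEB, also of mTORC1 signalling, rose by 0.57, 0.73 and 0.85. Neither MTOR, deposited as FRAP1, nor RPTOR was called in these comparisons. BCL2, which binds BECN1, fell by 0.69 at 25 nM and by 0.55 at 71.25 nM, and its relative BCL2L1 fell by 0.84 at 71.25 nM. In resistant cells neither was called (-0.22, adjusted p = 0.309, and -0.17, adjusted p = 0.147). MCL1, of the same family, rose by 0.76, 0.84 and 0.87. Of AMPK and its activator, PRKAG1 fell by 0.47 at both doses, and in resistant cells PRKAA1 fell by 0.37 and STK11 (LKB1) by 0.53 (adjusted p = 0.0495). Another AMPK subunit, PRKAB1, rose by 0.62 at 71.25 nM and by 0.73 in resistant cells, where PRKAG1 was at -0.04. FOXO1, a transcription factor of autophagy genes, fell by 0.45 in resistant cells, while FOXO3, of the same family, rose by 0.79 there. Of the other listed factors, ATF4 rose by 0.77, 1.22 and 1.21. TFE3 rose by 0.64 in resistant cells, from a probe detected on 2 of 3 control arrays.

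Genes of autophagosome fusion with the lysosome included rises and falls in each of these comparisons. Of 12 tested, 3 rose and 2 fell at 25 nM, 2 rose and 3 fell at 71.25 nM, and 4 rose and 1 fell in resistant cells, with medians of 0.08, 0.11 and 0.01. Over all genes 13.3%, 19.4% and 23% rose and 13.7%, 19.6% and 24.1% fell in these comparisons. The counts at 71.25 nM are near these shares, and whether the list differs from them was not tested. VPS18, a core subunit of the tethering complexes HOPS and CORVET, rose by 0.54, 0.62 and 0.56. VPS33A, of the same core, rose by 0.80 at 25 nM and by 0.58 at 71.25 nM, and VPS11 by 0.68 at 25 nM and by 0.47 in resistant cells. In resistant cells VPS39, a HOPS subunit whose probe was detected on 2 of 3 control arrays, rose by 0.63, and PLEKHM1, an adaptor between RAB7A and HOPS, by 0.52. VAMP8, a SNARE of this fusion, fell by 0.50 at 25 nM and by 0.55 at 71.25 nM, and SNAP29, another, by 0.44 and 0.40. TGFBRAP1, a CORVET subunit, fell by 0.81 at 71.25 nM and by 1.15 in resistant cells.

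Between the doses 10 of the 74 tested genes of the 5 lists rose and 1 fell, where 2.98% of all genes rose and 2.88% fell. The rises of largest size in their lists were SESN2 (1.71), DDIT4 (1.44), DDIT3 (1.23), TRIB3 (0.83), GABARAPL1 (0.65), MAP1LC3B (0.64), WDR45 (0.62), RB1CC1 (0.57) and ATG14, deposited as KIAA0831 (0.43), and BCL2L1 fell by 0.87. In resistant cells against 71.25 nM 11 of the 74 rose and 3 fell, where 11.3% of all genes rose and 10.3% fell. The rises were led by DDIT4 (0.90), FOXO3 (0.80), TMEM41B (0.76), BNIP3 (0.75), OPTN (0.68), BCL2L1 (0.67) and CALCOCO2 (0.62). DDIT3 (0.55), PRKAG1 (0.44), VAMP8 (0.35) and ATG101 (0.29) rose as well. SESN2 fell by 0.43, VPS33A by 0.55 and ATG4B by 0.30.

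Over the 12 arrays the genes whose levels ran most like WIPI1 among 14952 others were ETS2 (Pearson r = 0.99), RANBP6 (0.989), ETV5 (0.988), DDIT3 (0.987) and MICA (0.987). The points share arrays and groups, so this describes a common order of the 4 groups. Among the other members r with WIPI1 was highest for ATG12 (0.916), BECN1 (0.911), ULK1 (0.85) and ATG16L1 (0.845), and lowest for ULK2 (-0.0181) and ATG5 (-0.0734).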
